A study of Mus musculus with 10 samples.

Results

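The genes described here are Fmr1, its paralogs Fxr1 and Fxr2, and 7 genes whose proteins bind FMRP or work beside it (Cyfip1, Cyfip2, Nufip1, Ncl, Caprin1, Mov10 and Pum2). A gene was taken when the platform annotation pairs a probe set with its symbol alone, and 9 of the 10 had such a probe set, out of 22180 genes on the array. Cyfip1 had none and was not analysed here. Each of the 9 had 1 such probe set, and all 9 were brighter than the cutoff for dim probe sets, which left 17712 genes to test.

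Levels were read on 10 Affymetrix arrays of cells sorted by FACS from the cortex of mice aged 8 weeks. The genotype label was FMR1_KO for 5 arrays and wild-type for the 5 controls. Both groups were sorted on an EGFP reporter that astrocytes express. The sources used here give no strain, sex, Fmr1 allele, promoter of the reporter or pooling of animals. The titles call the replicates biological, and p-values set each difference against the spread between these arrays. All levels below are the authors' log2 signals, and each difference is the FMR1-KO-labelled mean less the control mean on that scale.

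Fmr1 encodes FMRP, a protein that binds many mRNAs through its KH domains and RGG box and represses them at the ribosome, and fragile X syndrome results from its loss. FXR1 and FXR2 are related RNA-binding proteins that can pair with it. CYFIP2 is a subunit of the WAVE complex, which drives actin branching, NUFIP1 and nucleolin work in the nucleus, and CAPRIN1, MOV10 and PUM2 are partners on silenced or transported mRNA. FMRP is also made by astrocytes, where it has been reported to support levels of the glutamate transporter GLT1.

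Some facts of the whole series touch these genes. The 3 arrays FMR1-KO 1, FMR1-KO 2 and control 1 had the lowest mean over the 9 measured of 10 listed microglia markers, at 9.89, 9.38 and 10.1, while the other FMR1-KO arrays lay at 10.4 to 10.7 and the other controls at 10.8 to 11.0. The same 3 arrays had the highest mean over 10 astrocyte markers, at 10.7, 10.8 and 10.3, against 9.78 to 10.0 on the other FMR1-KO arrays and 9.59 to 9.97 on the other controls. All 9 measured microglia markers had a lower mean and all 10 astrocyte markers a higher mean in FMR1-KO-labelled arrays, with median differences of -0.55 and 0.45, and 0 of either list passed the test. The defining markers of both types read high on every array, with Cx3cr1 at 10.10 or above and Slc1a2 at 10.71 or above. In such bulk samples fewer cells of a type and less RNA per cell cannot be told apart. Control arrays 2 and 3 read Xist, the RNA of the silenced X chromosome, at 10.60 and 10.98, whereas the other 8 arrays read 5.23 or below. The Y-linked genes went the other way, with Uty at 4.82 and 4.77 and Kdm5d at 4.86 and 4.83 on those 2 controls. The other 8 arrays read Uty at 7.64 or above and Kdm5d at 7.05 or above. By these genes control arrays 2 and 3 read as female and all FMR1-KO-labelled arrays as male, so sex was not balanced between the groups. Neuron, oligodendrocyte and endothelial marker means were below those of astrocytes and microglia on every array. They lay at 5.88 to 6.05, 6.28 to 6.63 and 6.41 to 6.53 on FMR1-KO-labelled arrays. On controls they lay at 5.93 to 6.14, 6.32 to 6.64 and 6.49 to 7.00. Of these lists, 2 of 7, 2 of 5 and 1 of 6 measured genes had a higher mean in FMR1-KO-labelled arrays. The median differences were -0.07, -0.02 and -0.35, and 0 genes of these lists passed the test. The mean of 3 choroid plexus markers was 8.90 to 10.2 on FMR1-KO-labelled arrays and 9.41 to 10.3 on controls, with 0 of 3 higher, and Ttr read 12.66 to 13.69 on FMR1-KO-labelled arrays and 13.39 to 13.80 on controls.

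None of the 9 genes passed the test between the groups. The test called 0 of 9, and it called 0 of all 17712 genes, a background of 0% (limma, two-sided, Benjamini-Hochberg adjusted p from 0.654 to 0.981 for the 9). At an unadjusted p under 0.05 there was 1 of 9, Mov10, where the background is 7.53% in either direction and 3.53% for a lower mean. For 0 of 9 genes were the groups free of overlap, where the background is 0.965%. The 95% intervals of the 9 differences lay within 0.645-fold to 1.44-fold. Larger changes of these transcripts in the sorted sample as a whole were outside the intervals. Each interval covers 1 gene alone and comes from a fit without sex or cell markers. The sizes of the differences had a median of 0.18 over the 9 genes and 0.09 over all genes tested. The median spread over the 10 arrays was an SD of 0.22 for the 9 genes and 0.18 for all genes.

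**Figure D1:**
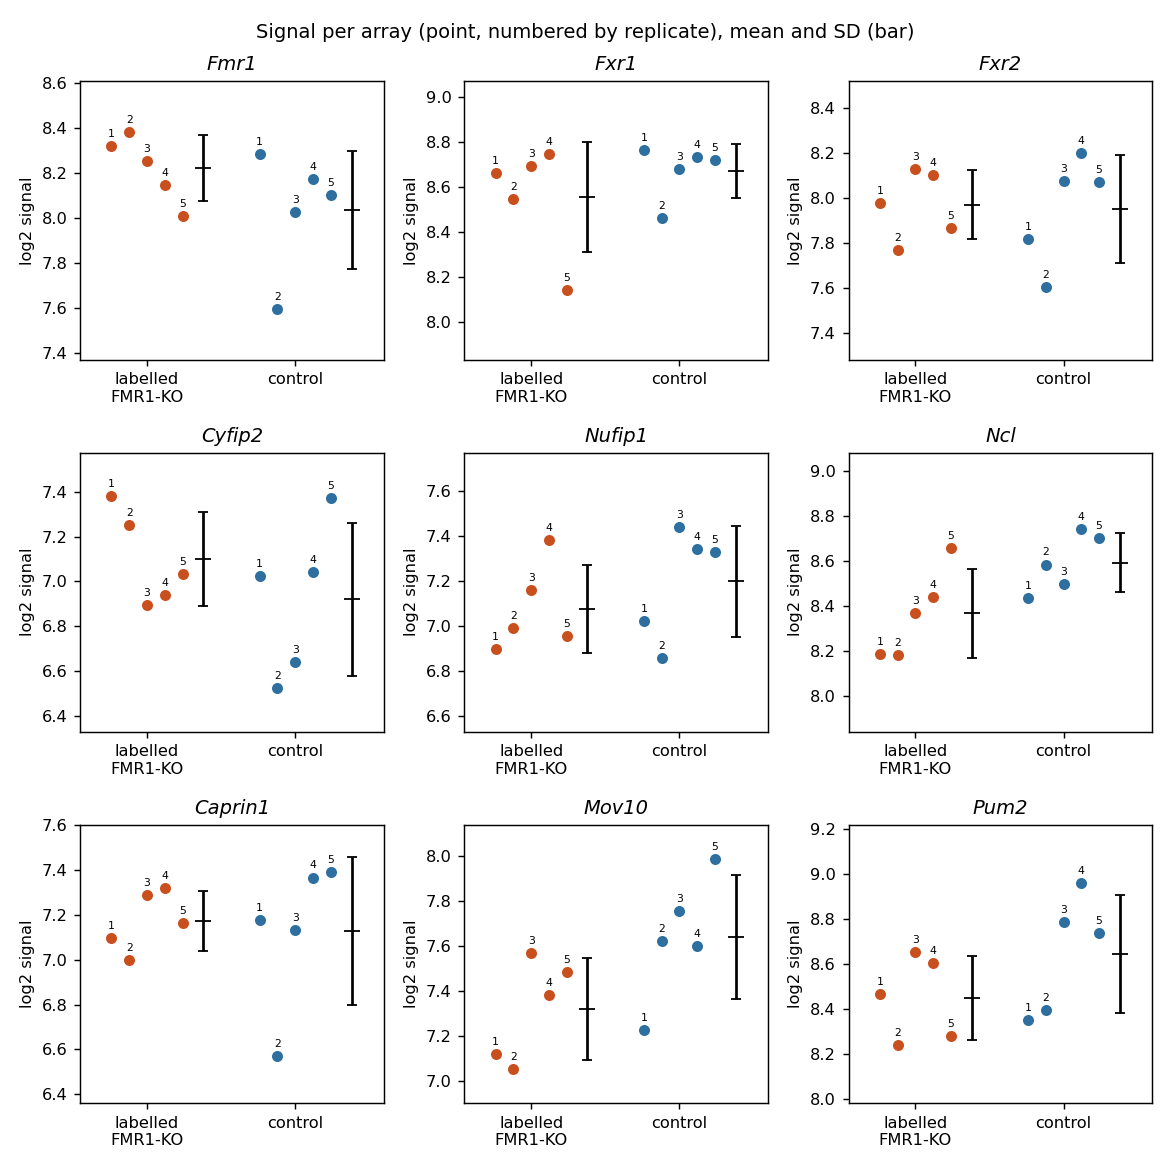
Log2 signal of the 9 measured genes on each array, with FMR1-KO-labelled arrays at left and controls at right. Points are arrays numbered by replicate, bars are the mean and SD of 5 arrays, and every panel spans the same range of log2 units. The groups overlap in every panel.

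Fmr1 itself read 8.32, 8.38, 8.26, 8.15 and 8.01 on FMR1-KO-labelled arrays 1 to 5, and 8.28, 7.60, 8.03, 8.17 and 8.10 on control arrays 1 to 5. Control array 2 was the lowest of the 10, and the remaining arrays of both groups lay within 8.01 to 8.38. The difference was 0.19 ± 0.13 (SE; 95% interval -0.09 to 0.46), and 4 of 5 FMR1-KO-labelled arrays were above the control mean (limma, Benjamini-Hochberg adjusted p = 0.704). Without control array 2 it was 0.08. With the 2 Xist-high controls left out it was 0.04 ± 0.10 (SE), and adding the microglia marker mean to that fit as a covariate gave -0.04 ± 0.10 (SE). The interval's lower end corresponds to 0.939 of the control level. Neither the exons under the probes nor the altered part of the gene is given in the sources used here, so this signal may check nothing about the labels, and the text speaks of FMR1-KO-labelled arrays for that reason.

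The sequence just upstream of Fmr1 is printed because signal from the gene persisted in the group labelled as its knockout, with those of its paralogs for comparison. The 3 stretches are the 250 bases before the 5′-most listed start of each gene, from RefSeq on GRCm38.p6, plus strand, at chrX:68678291-68678540 for Fmr1, chr3:34019829-34020078 for Fxr1 and chr11:69632721-69632970 for Fxr2. Capitals mark 3 motifs searched on both strands: the GC box GGGCGG that Sp1 family factors bind, the E-box CACGTG that USF factors bind, and the NRF1 palindrome, which is the half-site GCGCA followed directly by its reverse complement.
Fmr1: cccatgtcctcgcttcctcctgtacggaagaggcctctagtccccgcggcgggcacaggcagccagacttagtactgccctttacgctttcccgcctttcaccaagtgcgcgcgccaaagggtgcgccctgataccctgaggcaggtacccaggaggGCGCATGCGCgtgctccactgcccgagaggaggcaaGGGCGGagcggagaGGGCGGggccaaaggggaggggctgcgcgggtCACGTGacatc
Fxr1: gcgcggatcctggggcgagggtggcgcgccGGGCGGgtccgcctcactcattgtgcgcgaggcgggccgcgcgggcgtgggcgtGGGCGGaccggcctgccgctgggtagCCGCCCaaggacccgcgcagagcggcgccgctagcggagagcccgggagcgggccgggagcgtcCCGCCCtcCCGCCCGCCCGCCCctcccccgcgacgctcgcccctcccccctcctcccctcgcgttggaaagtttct
Fxr2: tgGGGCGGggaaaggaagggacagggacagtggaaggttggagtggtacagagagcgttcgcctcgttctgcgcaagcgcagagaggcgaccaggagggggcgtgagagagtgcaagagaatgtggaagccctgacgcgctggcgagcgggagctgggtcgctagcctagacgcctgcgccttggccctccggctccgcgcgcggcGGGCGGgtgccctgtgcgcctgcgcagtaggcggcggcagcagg

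Fmr1 held 2 GC boxes, 1 E-box and 1 NRF1 palindrome. Fxr1 held 7 GC boxes, some of which overlap one another, and Fxr2 held 2, and neither held the other motifs in this window. Only the exact letters of each motif were searched, so variant sites were not counted. Of 32851 upstream windows of the same length, 32.7% held a GC box, 6.02% the E-box and 0.782% the NRF1 palindrome. Sequences of 9 of the 10 genes were in the table. Among the other 6, a GC box was found for Caprin1, with 4, and Ncl, with 3, and none of the 3 motifs for Cyfip2, Nufip1, Mov10 and Pum2. The matches describe the letters and say nothing of binding in these cells.

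The paralogs did not pass the test in either direction. Fxr1 read 8.66, 8.55, 8.69, 8.75 and 8.14 on FMR1-KO-labelled arrays 1 to 5, and 8.76, 8.46, 8.68, 8.73 and 8.72 on control arrays 1 to 5. FMR1-KO array 5 and control array 2 were low, and the other 8 arrays spanned 8.55 to 8.76. The difference of -0.11 ± 0.12 (SE; 95% interval -0.37 to 0.14) was -0.01 without FMR1-KO array 5 (limma adjusted p = 0.812 over all arrays). A second probe set that the annotation pairs with Fxr1 together with Dnajc19 and Dnajc19-ps gave 0.20 ± 0.13 (SE), the opposite sign.

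Fxr2 read 7.98, 7.77, 8.13, 8.10 and 7.87 on FMR1-KO-labelled arrays, and 7.82, 7.60, 8.07, 8.20 and 8.07 on controls. Its levels were mixed across both groups, with 3 of 5 FMR1-KO-labelled arrays above the control mean. The difference was 0.02 ± 0.12 (SE; 95% interval -0.25 to 0.28; limma adjusted p = 0.981), the smallest of the 9. Leaving out control array 2 gave -0.07, and leaving out control array 4 gave 0.08.

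The gap between paralogs on the same array was also compared, to see whether their signals differed unequally. The gap's own size has no meaning between different probe sets. Fxr1 minus Fmr1 was 0.34, 0.16, 0.44, 0.60 and 0.13 on FMR1-KO-labelled arrays, and 0.48, 0.86, 0.65, 0.56 and 0.61 on controls. The gap averaged 0.33 ± 0.19 in FMR1-KO-labelled arrays and 0.63 ± 0.14 in controls (SD, n = 5 each), and the groups overlapped, with FMR1-KO array 4 above control arrays 1 and 4. Fxr2 minus Fmr1 averaged -0.25 ± 0.23 in FMR1-KO-labelled arrays and -0.09 ± 0.22 in controls (SD, n = 5 each). Fxr2 minus Fxr1 averaged -0.59 ± 0.19 in FMR1-KO-labelled arrays and -0.72 ± 0.18 in controls (SD, n = 5 each). The gaps use the Fxr1 probe set with 1 symbol. The shared Fxr1 probe set differed by 0.20 between the groups, close to the 0.19 of Fmr1, so the Fxr1 gaps depend on the probe set. These gaps were chosen after the levels were seen and were not tested.

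**Figure D2:**
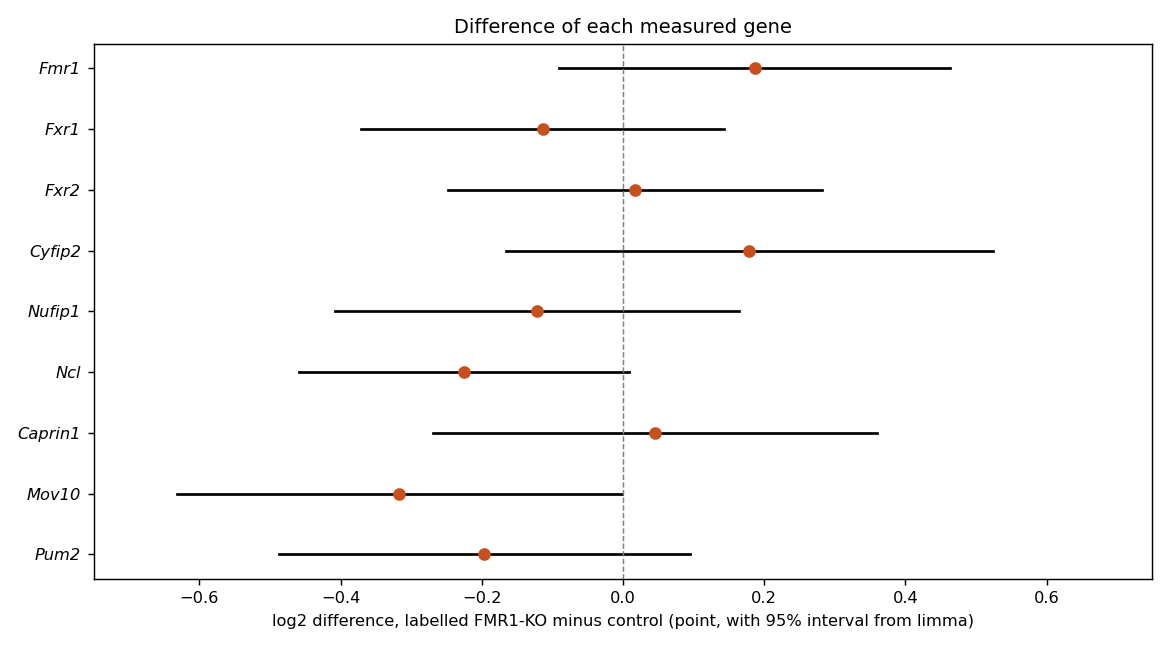
Difference between FMR1-KO-labelled arrays and controls for the 9 measured genes, on the log2 axis, with points at the difference and lines for the 95% interval from limma. All intervals include 0 except that of Mov10, which ends just below it.

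Cyfip2, the WAVE complex subunit and the measured member of the CYFIP pair, read 7.38, 7.25, 6.90, 6.94 and 7.03 on FMR1-KO-labelled arrays, and 7.02, 6.53, 6.64, 7.04 and 7.37 on controls. The Xist-high control arrays 2 and 3 were the lowest of the 10. The difference was 0.18 ± 0.16 (SE; 95% interval -0.17 to 0.52; limma adjusted p = 0.770), and it was -0.05 ± 0.14 (SE) without those 2 controls.

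Nuclear partners read as follows. Nufip1, which assembles box C/D small nucleolar ribonucleoproteins, had 6.90, 6.99, 7.16, 7.38 and 6.96 on FMR1-KO-labelled arrays, and 7.02, 6.86, 7.44, 7.34 and 7.33 on controls. Control arrays 3 to 5 formed the upper end together with FMR1-KO array 4, and the lowest array was control 2. The difference was -0.12 ± 0.13 (SE; 95% interval -0.41 to 0.16; limma adjusted p = 0.821).

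Ncl encodes nucleolin, an abundant nucleolar protein that binds ribosomal RNA. It read 8.19, 8.18, 8.37, 8.44 and 8.66 on FMR1-KO-labelled arrays, and 8.43, 8.58, 8.50, 8.74 and 8.70 on controls. FMR1-KO arrays 1 to 3 lay below every control, FMR1-KO array 4 lay just above the lowest control, and FMR1-KO array 5 lay among the upper controls. The difference was -0.22 ± 0.11 (SE; 95% interval -0.46 to 0.01), with 4 of 5 FMR1-KO-labelled arrays below the control mean (limma adjusted p = 0.655). It was -0.30 without FMR1-KO array 5 and -0.18 without FMR1-KO array 2, and did not pass the test in either.

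Of the partners on cytoplasmic mRNA, Mov10, an RNA helicase that acts with the microRNA machinery, had the lowest unadjusted p of the 9. Its levels were 7.12, 7.06, 7.57, 7.38 and 7.49 on FMR1-KO-labelled arrays, and 7.23, 7.62, 7.76, 7.60 and 7.99 on controls. All 5 FMR1-KO-labelled arrays were below the control mean, and the groups overlapped through control array 1. Mov10 averaged 7.32 ± 0.23 in FMR1-KO-labelled arrays and 7.64 ± 0.28 in controls (SD, n = 5 each), a difference of -0.32 ± 0.14 (SE; 95% interval from -0.63 to just below 0; limma adjusted p = 0.654). The difference was -0.08 ± 0.11 (SE) with the microglia mean as a covariate. It was -0.26 ± 0.12 (SE) without the 3 arrays lowest in microglia markers and -0.28 ± 0.18 (SE) without the Xist-high controls.

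Pum2, a Pumilio protein that binds sites in 3′ untranslated regions and represses the mRNA, read 8.46, 8.24, 8.65, 8.60 and 8.28 on FMR1-KO-labelled arrays, and 8.35, 8.39, 8.78, 8.96 and 8.74 on controls. Control arrays 3 to 5 were above all FMR1-KO-labelled arrays, and control arrays 1 and 2 lay among them. The difference was -0.20 ± 0.13 (SE; 95% interval -0.49 to 0.09; limma adjusted p = 0.703), and it was -0.02 ± 0.13 (SE) with the microglia mean as a covariate.

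Caprin1, which binds G3BP proteins in stress granules, read 7.10, 7.00, 7.29, 7.32 and 7.16 on FMR1-KO-labelled arrays, and 7.18, 6.57, 7.13, 7.36 and 7.39 on controls. Control array 2 stood lowest, and the other 9 arrays spanned 7.00 to 7.39. The difference was 0.05 ± 0.14 (SE; 95% interval -0.27 to 0.36; limma adjusted p = 0.949) and was -0.09 without control array 2.

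Levels were also set beside the array rather than the genotype label. Control array 2 gave the lowest level of the 10 arrays for Fmr1, Fxr2, Cyfip2, Nufip1 and Caprin1, and the lowest control level for Fxr1. Mov10 spanned 7.06 to 7.23 on the 3 arrays lowest in microglia markers and 7.38 to 7.99 on the other 7, so these sets did not overlap. Fmr1 lay the other way, at 8.28 to 8.38 on those 3 arrays and 7.60 to 8.26 on the other 7. The other 7 genes overlapped between the 2 sets of arrays. Of all genes tested, 17.3% did not overlap in this split, so 2 of 9 is near the background. As a covariate the microglia mean brought the size of the differences of Fmr1, Cyfip2, Nufip1 (to 0.03, with the sign turned), Ncl, Mov10 and Pum2 down and raised that of Fxr2 to 0.15 ± 0.12 (SE) and of Caprin1 to 0.14 ± 0.16 (SE), while Fxr1 stayed at -0.11 ± 0.14 (SE).

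**Figure D3:**
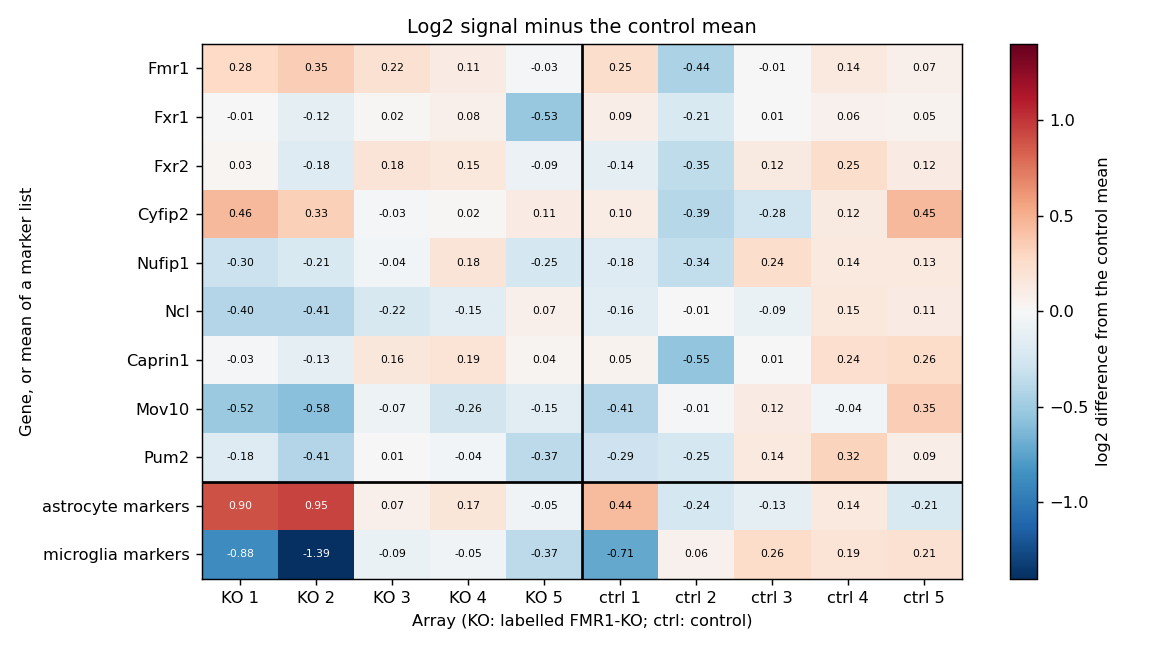
Log2 signal of each gene on each array minus the mean of the 5 controls, with the means of 10 astrocyte and 9 microglia markers in the lower rows. Columns are arrays, labelled FMR1-KO at left and controls at right, and the colour runs from blue for lower to red for higher. FMR1-KO arrays 1 and 2 and control array 1 share low microglia markers and low Mov10.

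**Figure D4:**
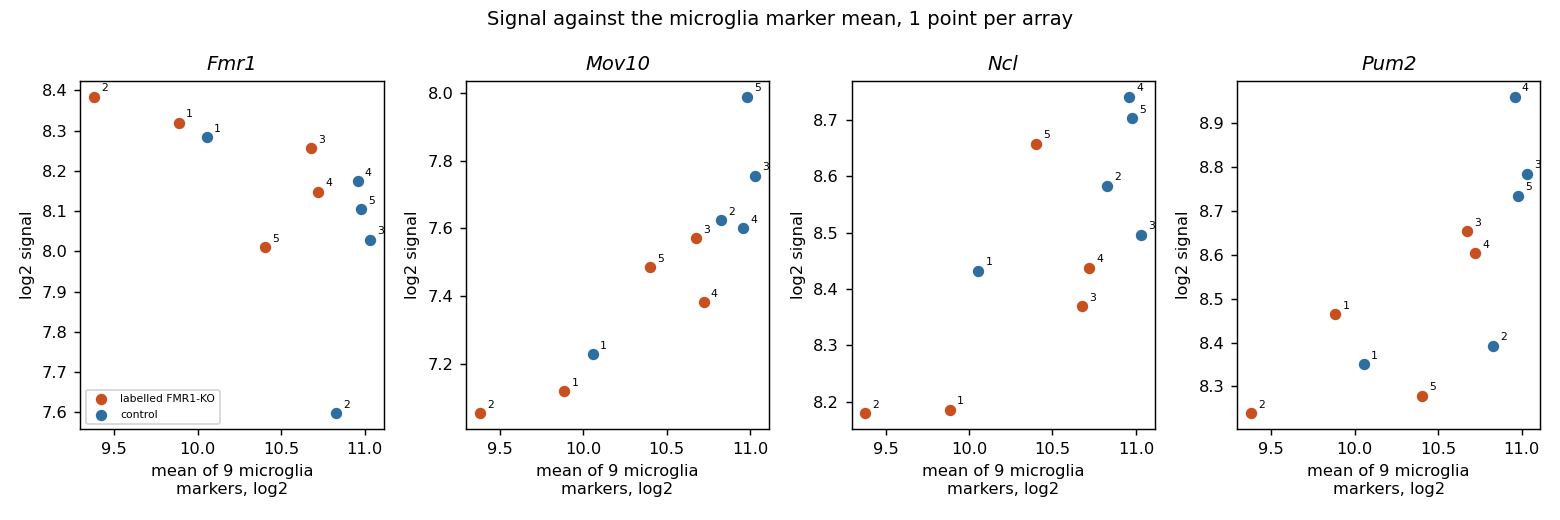
Log2 signal of Fmr1, Mov10, Ncl and Pum2 (vertical axes) against the mean log2 signal of 9 microglia markers (horizontal axes), with FMR1-KO-labelled arrays in orange and controls in blue, numbered by replicate. Mov10 is lowest on the 3 arrays at the left, where it reads 7.06 to 7.23.

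The 5 genes whose levels followed Fmr1 most closely over the 10 arrays, by Pearson's r, were Relt at 0.974, Ecpas at 0.973, Tcp11l1 at 0.970, Trp53bp2 at 0.970 and Glb1l at 0.965, with Spearman's rho of 0.891 to 0.988. Of 17711 genes compared, 147 had an r above 0.9, all points share the same 10 arrays, and no p is given because the genes were picked for their r. On the 7 arrays with higher microglia markers alone the 5 values of r were 0.962 to 0.990. Leaving out control array 2 and FMR1-KO array 2, the arrays farthest from the Fmr1 median, gave 0.889 to 0.955. Of the other 8 measured genes, Cyfip2 had the highest r with Fmr1 over all 10 arrays, at 0.707. On the 7 arrays alone Caprin1 had 0.95 and Fxr2 0.941, against 0.597 and 0.404 over the 10. Those 7 include control array 2, the lowest of the 10 for Fmr1, Caprin1 and Fxr2. With only that array left out, r was -0.401 for Caprin1, -0.368 for Fxr2 and 0.463 for Cyfip2. Spearman's rho over the 10 was -0.0182 for Caprin1 and 0.0424 for Fxr2. Like Fmr1, Trp53bp2 was lowest on control array 2, at 8.34, and highest on FMR1-KO array 2, at 9.56.

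Companion genes of the same complexes were counted in 7 lists. Of 65 genes listed, 59 were measured, of which 26 had higher and 33 had lower means in FMR1-KO-labelled arrays, and 0 passed the test adjusted over all genes. At an unadjusted p under 0.05 there were 7, or 11.9%, where the background is 7.53%. The median difference over all genes tested was -0.01. The list medians lay between -0.10 for the WAVE complex list, which includes Rac1, and 0.05 for the microRNA silencing list.

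The list of the WAVE complex, which CYFIP proteins belong to, had 4 higher and 6 lower means among 10 measured genes. This list also holds Rac1, at -0.22 ± 0.12 (SE), which is not a subunit of the complex. Wasf3 differed by 0.53 ± 0.23 (SE), the subunit gene Nckap1 by 0.45 ± 0.22 and Wasf2 by -0.50 ± 0.22, with a limma adjusted p of 0.654 to 0.657. Nckap1l, the blood cell counterpart of Nckap1, differed by -0.56 ± 0.38 (SE) and Abi3 by -0.49 ± 0.33, and these 2 were named after their values were seen. Wasf2 lay at 8.00 to 8.60 on the 3 arrays lowest in microglia markers and at 8.93 to 9.41 on the other 7. Nckap1 lay at 9.29 to 9.72 on those 3 arrays and 8.32 to 8.93 on the other 7. The ranges of Wasf3, Nckap1l and Abi3 also did not overlap in this split. Of the companion genes named below, the same held for Eif4e2, Pabpc1, Tnrc6a, Ddx6, Ago1, Stau1 and Kcnt1, and the rest overlapped. Over all genes tested, 17.3% did not overlap in this split. The named companion genes were picked for a small p between the groups or after their values were seen. Most of the 3 arrays are FMR1-KO-labelled, so such picking favours genes that do not overlap in this split. The number of named genes is therefore not comparable with that share. With the microglia mean as a covariate, the differences were 0.12 ± 0.16 (SE) for Wasf3, 0.02 ± 0.12 for Nckap1, -0.04 ± 0.09 for Wasf2 and 0.22 ± 0.14 for Nckap1l. Without the 3 arrays they were 0.45 ± 0.12 (SE), 0.28 ± 0.13, -0.32 ± 0.10 and -0.13 ± 0.15.

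The list named cap-binding proteins held genes of eIF4E proteins, which CYFIP1 can hold, and of proteins that bind eIF4E. It had 0 higher and 6 lower means among 6 measured genes, with a median of -0.09. The translation inhibitor Eif4ebp1 differed by -0.25 ± 0.12 (SE), Eif4ebp2 by -0.20 ± 0.12 and Eif4e2 by -0.10 ± 0.09. The counts were 1 higher and 5 lower once the arrays were brought to equal medians, and also with quantile normalization. With the microglia covariate they were 2 higher and 4 lower. Over all 17712 genes tested, 9430 had lower means. In the list of stress granule proteins 5 of 10 had higher means and 5 had lower ones, with the CAPRIN1 binder G3bp2 at -0.25 ± 0.12 (SE), Atxn2 at 0.21 ± 0.10 and the poly(A)-binding protein gene Pabpc1 at -0.29 ± 0.14. With the microglia covariate Pabpc1 was at -0.06 ± 0.11 (SE), Atxn2 at 0.10 ± 0.11 and Eif4e2 near 0, at -0.0013 ± 0.09.

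In the microRNA silencing list, to which MOV10 is linked, 7 of 9 measured genes had higher means and 2 had lower ones, and the median was 0.05. The scaffold gene Tnrc6a differed by 0.26 ± 0.10 (SE) with all 5 FMR1-KO-labelled arrays above the control mean, the helicase Ddx6 by -0.24 ± 0.13 and Ago1 by -0.23 ± 0.15. With the microglia covariate these differences were 0.12 ± 0.09 (SE) for Tnrc6a, -0.04 ± 0.11 for Ddx6 and 0.04 ± 0.11 for Ago1, whose sign turned. Without the Xist-high controls the list had 4 higher and 5 lower. Pumilio and mRNA transport genes, 2 higher and 4 lower, had Ybx1 at -0.13 ± 0.09 (SE), Purb at -0.17 ± 0.12 and Stau1 at -0.16 ± 0.14. Stau1 turned to 0.05 ± 0.11 (SE) with the microglia covariate.

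The box C/D and nucleolar list, around NUFIP1 and nucleolin, had 3 higher and 7 lower means among 10 measured genes, with a median of -0.09. The core protein gene Nop58 differed by -0.27 ± 0.10 (SE), the nucleolar chaperone gene Npm1 by -0.20 ± 0.08 and Snu13 by -0.17 ± 0.08, each with all 5 FMR1-KO-labelled arrays below the control mean (limma adjusted p = 0.654). Npm1 read 8.29 to 8.57 on FMR1-KO-labelled arrays and 8.59 to 8.78 on controls. It was the 1 companion gene of 59 whose groups did not overlap, which is near the background of 0.965%. The difference of Npm1 was -0.25 ± 0.10 (SE) with the microglia covariate and -0.24 ± 0.09 without the Xist-high controls. It did not pass the test in either. With the covariate Nop58 was at -0.13 ± 0.10 (SE) and Snu13 at -0.12 ± 0.09. Among other reported FMRP binders, 5 higher and 3 lower, Fzr1 differed by -0.20 ± 0.08 (SE), the sodium-activated potassium channel Kcnt1 by 0.37 ± 0.18 and the calcium channel Cacna1b by -0.12 ± 0.08. Kcnt1 read 7.96 to 8.07 on the 3 arrays lowest in microglia markers and 6.92 to 7.69 on the other 7, and its difference was 0.11 ± 0.16 (SE) with the covariate, where that of Fzr1 was -0.12 ± 0.10. Of the 21 companion genes named for the smallest p in their list, 18 had a smaller difference with the microglia covariate, 2 of them with the sign turned. The difference was larger for 3 (Eif4ebp1, Eif4ebp2 and Npm1). The genes were picked for a small p without the covariate, and the covariate itself averaged 10.21 in FMR1-KO-labelled arrays and 10.77 in controls. Smaller differences are therefore likely for genes picked in this way, and the share over all genes is not given here.

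**Figure D5:**
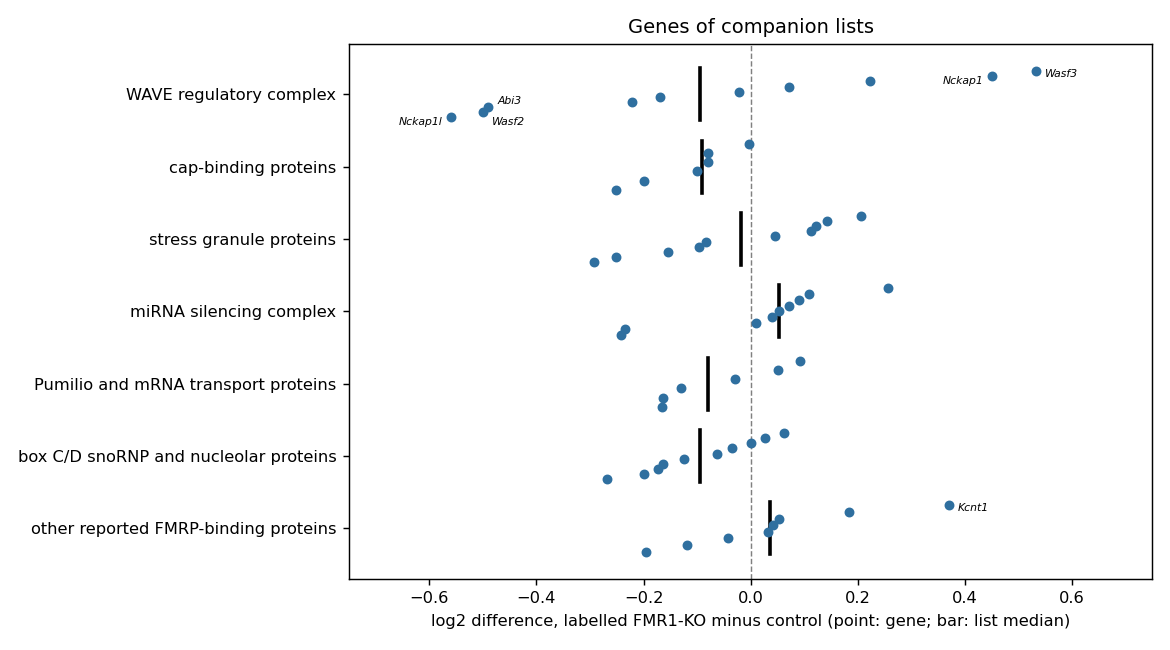
Differences between FMR1-KO-labelled arrays and controls for the 59 measured genes of the 7 companion lists, on the log2 axis, with a point per gene, a bar at the list median and names for sizes over 0.3. Points lie on both sides of 0 in every list but the one named cap-binding proteins, and 0 genes passed the test.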

How the data were processed

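The authors deposited log2 signal levels per probe set for 10 arrays. The scale was read from the values, which run from 4.31 to 13.9 with array medians of 6.11 to 6.24. Per the labels' protocols, cDNA was amplified, fragmented and labelled with biotin using Affymetrix whole-transcript kits. The sources used here give no method of background correction, normalization or summary. GeneSpring was used for the comparison, per the design text of the series.

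From these values, of 33793 probe sets the 23521 with 1 symbol were kept, then the brightest per gene, then those with a mean at or above the 25th percentile of all probe sets (5.32). Groups were compared by a two-sided test in limma 3.58.1 (lmFit, then eBayes; R 4.3.3), Benjamini-Hochberg adjusted over 17712 genes, threshold 0.05. The script was tested on simulated data. The number of arrays limits the precision.

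The genes and lists were chosen with earlier results of these data known. Named are the genes of interest, in each companion list the 3 genes with the smallest unadjusted p, the 5 genes most like Fmr1, and fixed sex and cell markers. Marker lists cover astrocytes, microglia, neurons, oligodendrocytes, endothelium and choroid plexus. Alternatives were other normalizations, filters, probe set rules, variance models, array weights, a block on the replicate number, covariates and leaving out arrays.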

Additional observations from a re-analysis of the deposited data

Results flagged for a closer look

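Single arrays stood apart in 4 of 96 groups of 5 arrays examined, where chance flags about 1 in 20. For Fxr1 it was control array 2, at 8.46, where the other controls read 8.68 to 8.76. For Wasf2 it was control array 1, at 8.60, where the other controls read 9.25 to 9.41. Relt, the gene most like Fmr1, was at 6.85 on FMR1-KO array 5, and the other FMR1-KO-labelled arrays read 7.06 to 7.13. The mean of the microglia markers on control array 1 was 10.1, where the other controls had 10.8 to 11.0.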

How the results depend on the processing

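None of the 9 genes passed the adjusted threshold under any of 22 alternatives or, for Fxr1, the shared probe set. Of 199 values, 186 kept their direction and 13 reversed. With only the Xist-low arrays, Caprin1 was -0.137, Cyfip2 -0.0458 and Fxr2 -0.0596. With those arrays and the microglia covariate, Caprin1 was -0.0364, Cyfip2 -0.116 and Fmr1 -0.0403. With the covariate on all arrays Nufip1 was 0.0272, and the shared probe set gave 0.202 for Fxr1. Leaving out single arrays gave -0.0708 to 0.0782 for Fxr2, which reversed without FMR1-KO array 3 (-0.0234) or 4 (-0.0165) and without control array 1 (-0.0172) or 2 (-0.0708). Caprin1 ranged over -0.093 to 0.111 and reversed without control array 2. The ranges were 0.0763 to 0.248 for Fmr1, -0.167 to -0.0094 for Fxr1, 0.0804 to 0.292 for Cyfip2, -0.207 to -0.0612 for Nufip1, -0.298 to -0.178 for Ncl, -0.419 to -0.23 for Mov10 and -0.27 to -0.118 for Pum2. The cause of the reversals was not tested.

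Over all genes, the count called was 1 without the 3 arrays lowest in microglia markers (Tlcd1, named after its value was seen) and ranged from 0 to 1 over single arrays left out, the 1 being Cnbd2 without control array 5. With the replicate number as a block, 0 genes passed, Fmr1 differed by 0.19 ± 0.13 (SE) and Mov10 by -0.32 ± 0.10 (SE; limma adjusted p = 0.333, where its other alternatives gave 0.229 to 1). Deviations from the group mean had correlations of -0.0153 to 0.525 between same-numbered arrays. Only for replicate 1 was the same-numbered control the best match. The numbers were therefore not taken to pair the arrays, and the block changed no call. At an unadjusted p under 0.05 the number of the 9 genes ran from 0 to 2 over the alternatives, with Mov10 or Ncl or both. The share over all genes ran from 4.05% to 13.7% over the same alternatives. Where 2 of the 9 were counted, that share was 8.18% to 13.7%.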
